A study of Homo sapiens with 6 samples.

Results

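The 10 genes described here encode the kinases, phosphatases, core subunits and pyruvate carrier of the pyruvate dehydrogenase system. They were chosen by name, as members of this system, from 62252 genes to which the quantified transcripts were assigned. The rule uses no measured value, but earlier results of these data were known when the genes were chosen. They are the pyruvate dehydrogenase kinases PDK1, PDK2, PDK3 and PDK4, the phosphatases PDP1 and PDP2, the E1 subunits PDHA1 and PDHB, the E2 subunit DLAT and the mitochondrial pyruvate carrier subunit MPC1. All 10 were found once each in the annotation and all 10 had a mean count above 10, the limit for testing.

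The cells were K562, a human erythroleukemia line. They descend from 1 K562 clone that carried loxP and lox2272 sites around a blasticidin marker in the AAVS1 locus. Cre recombinase then exchanged that marker for Flag-PCBP1, which doxycycline switches on, and puromycin selection gave a polyclonal stable line. The comparison asks which mRNAs change when PCBP1 is made in excess. Libraries of polyA RNA were made from 3 samples without doxycycline (−Dox, labelled control) and 3 with doxycycline (+Dox, labelled PCBP1 OE). Both groups carry this insert, so the groups differ in doxycycline as well as in Flag-PCBP1, and the effects of these cannot be told apart. The dose and time of doxycycline for these libraries are not given in the sources used here. The labels do not state whether the replicates are separate cultures, so the p-values measure only the spread between these samples. Library totals ran from 70905656 to 84177316 estimated counts.

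The pyruvate dehydrogenase complex turns pyruvate into acetyl-CoA in the mitochondrial matrix and so joins glycolysis to the tricarboxylic acid (TCA) cycle. Its E1 enzyme, a tetramer of PDHA1 and PDHB products, removes carbon dioxide from pyruvate, and E2, made by DLAT, passes the acetyl group to coenzyme A on a lipoyl arm. The kinases switch E1 off by phosphorylating serines of the PDHA1 product, the phosphatases switch it on again, and pyruvate reaches the complex through the carrier of which MPC1 is a part. PDK1 is a textbook target of hypoxia-inducible factor, and PDK4 is known for its induction in fasting and by fatty acids.

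The labels were checked first with PCBP1, an RNA-binding protein and iron chaperone. It stood at 247.5, 269.5 and 266.9 CPM (counts relative to library size, with TMM scaling) in −Dox replicates 1, 2 and 3, and at 1030, 936.4 and 1037 CPM in +Dox replicates 1, 2 and 3. The groups were far apart, with a log2 fold change of 1.94 (standard error, SE, 0.055, edgeR adjusted p = 5.22e-10), in the direction of the labels. The counts do not separate Flag-PCBP1 from the cells' own PCBP1. The K562 identity was checked with 10 markers, whose summed level lay between 7087 and 8056 CPM in the 6 libraries, with the gamma globin gene HBG2 the most abundant (3580 CPM in −Dox and 3620 CPM in +Dox). Of these 10 markers, 6 (60.0%) passed an adjusted p under 0.05 between the groups by edgeR. Among all genes tested 15.8% did so, and 22.0% among those averaging 1 CPM or more. The 6 included EPOR (log2 fold change 0.97), KLF1 (0.45) and TAL1 (0.44), which were higher. TFRC (−0.34) and LMO2 (−0.20) were lower. LMO2 was lost when either of −Dox replicates 2 and 3 or of +Dox replicates 2 and 3 was left out. These erythroid genes moved with the comparison described here, and their part in it was not tested. Markers of 7 other cell types summed to between 53.26 and 58.43 CPM, most of it from EPCAM (45.82 CPM in −Dox), while CD3E was at 0.0128 CPM and CD14 at 0.120 CPM in −Dox. Of these, 5 were tested and 0 passed the adjusted edgeR test, with 2 at an unadjusted p under 0.05.

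The sequences shown first are the 300 bases around the start of the main annotated transcript (MANE Select) of PDK2, the kinase whose mRNA changed, and of PDK1, the most abundant kinase. Each runs from 250 bases before the start to 50 bases after it, from RefSeq on GRCh38.p14, plus strand. The PDK2 window is chr17:50095101-50095400 and the PDK1 window is chr2:172555840-172556139. Capitals mark ACGTG, a form of the core of the hypoxia response element, searched on both strands. Below, the core means these letters only, and other forms were not searched. A match on the minus strand reads CACGT here.
PDK2: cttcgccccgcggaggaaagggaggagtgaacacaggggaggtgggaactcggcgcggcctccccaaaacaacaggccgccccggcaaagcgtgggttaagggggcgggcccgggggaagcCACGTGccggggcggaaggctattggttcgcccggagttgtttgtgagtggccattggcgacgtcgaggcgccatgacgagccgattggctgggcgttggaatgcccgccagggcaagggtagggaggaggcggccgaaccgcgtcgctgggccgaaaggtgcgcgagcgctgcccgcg
PDK1: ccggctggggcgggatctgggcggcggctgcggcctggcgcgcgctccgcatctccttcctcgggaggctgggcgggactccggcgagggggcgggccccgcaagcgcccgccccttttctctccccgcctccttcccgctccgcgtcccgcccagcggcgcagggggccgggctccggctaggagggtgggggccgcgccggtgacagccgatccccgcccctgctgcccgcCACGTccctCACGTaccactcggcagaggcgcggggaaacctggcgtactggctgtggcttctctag
In the PDK2 promoter the letters form 1 palindrome, CACGTG, which holds the core on both strands and is also the letters of an E-box. In the PDK1 promoter the core occurs 2 times, both on the minus strand. Of the 10 genes, 9 were matched to 12 promoter windows of this length, since PDK1 and PDK2 have more than 1. The core was present in 6 of the 12, in PDK1, PDK2, PDK3, PDP2, PDHB and DLAT, and in 21.4% of all 35116 promoter windows. CACGTG was present in 3 of the 12, those of PDK2, PDP2 and PDHB, and in 7.26% of all windows. A match is a description of letters only.

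Levels between genes were compared in TPM, which is scaled for transcript length. MPC1 was the most abundant of the genes in −Dox, at 171.3 ± 3.71 TPM (SD, n = 3), followed by PDHA1 at 152.7 ± 2.62 TPM. PDHB (53.21 ± 2.81 TPM) and DLAT (51.64 ± 2.71 TPM) came next, and their libraries overlapped. Over protein-coding transcripts DLAT was below PDHB in each −Dox library (log2 ratio −0.49, −0.53 and −0.68 in replicates 1, 2 and 3). The regulators were far lower, with PDP2 at 9.19 ± 1.13 TPM and PDK1 at 8.97 ± 0.0441 TPM, also with overlapping libraries. PDK2 (1.15 ± 0.517 TPM), PDK3 (1.04 ± 0.342 TPM) and PDP1 (0.992 ± 0.178 TPM) overlapped in their ranges, and PDK4 was the lowest at 0.151 ± 0.0700 TPM. The standing of PDK2 beside PDK3 rested on counting noncoding transcripts, since over protein-coding ones PDK2 held 2.83% to 5.59% of the summed kinase TPM in −Dox and PDK3 7.47% to 12.2%, without overlap. In +Dox the order of the first 4 genes was kept, but MPC1 and PDHA1 overlapped while PDHB and DLAT did not, and PDK2 stood at 2.36 ± 0.492 TPM (SD, n = 3). Summed, the 4 kinases reached 11.3 TPM in −Dox and the 2 phosphatases 10.2 TPM. PDK4 rested on only 26 to 60 counts per library, which limits what can be seen of it, whereas PDHA1 had 12352 to 15101.

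**Figure D1:**
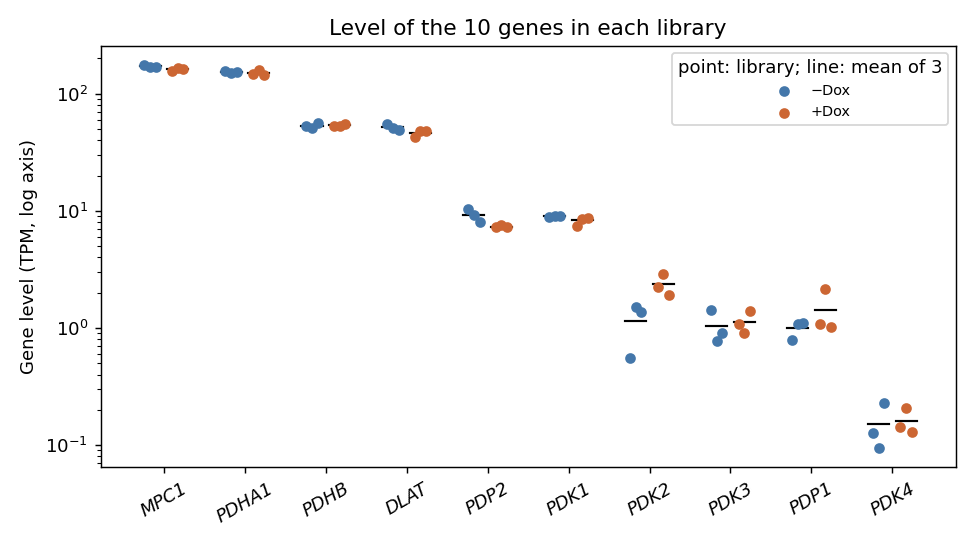
Level of each of the 10 genes in TPM on a log axis, with 1 point per library, −Dox in blue and +Dox in orange, and a line at the mean of 3. MPC1 and PDHA1 lie above 140 TPM and PDK4 below 0.3 TPM in all libraries, and the groups of PDK2 do not overlap (0.555 to 1.52 TPM in −Dox and 1.93 to 2.895 TPM in +Dox).

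Genes were compared between the groups by edgeR's quasi-likelihood test over 21045 genes, two-sided, with Benjamini-Hochberg adjustment. Of the 10 genes, 1 rose (PDK2) and 1 fell (PDP2) at an adjusted p under 0.05. This is 20.0% of the 10, where 15.8% of all genes tested passed the same limit, 8.16% higher and 7.68% lower, and 22.0% among genes averaging 1 CPM or more. The share of the 10 is thus close to the background. In bulk RNA, fewer cells with an mRNA and less of it per cell cannot be told apart. Only PDK2 also had an absolute log2 fold change above 1, a limit passed by 1.46% of all genes. The median log2 fold change of the 10 was −0.026 against 0.006 over all genes. The +Dox libraries lay outside the −Dox range in 6 of the 10 (PDK2 and PDP1 higher, PDP2, DLAT, PDHA1 and MPC1 lower), where 33.2% of all genes did so, 17.4% higher and 15.8% lower. For 4 of these 6 the test did not pass.

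PDK2 (ENSG00000005882.12, chromosome 17, 50094737 to 50112152, plus strand) encodes a widely expressed kinase of the complex. It had 89, 144 and 132 counts in −Dox replicates 1, 2 and 3, and 226, 254 and 282 counts in +Dox replicates 1, 2 and 3. On the CPM scale these were 1.052, 1.849 and 1.767 against 3.185, 3.004 and 3.473. The 3 +Dox libraries were close together and all above the −Dox libraries, among which replicate 1 was the lowest. The change was 2.07-fold, a log2 fold change of 1.05 (SE 0.207, 95% interval 0.603 to 1.501, edgeR adjusted p = 0.00417). With each library left out in turn PDK2 remained called, with an adjusted p of 0.00473 to 0.0281 by edgeR, but the fold was under 2 without −Dox replicate 1 (log2 fold change 0.83) and without +Dox replicate 3 (0.99). With an offset for transcript length it was not called (log2 fold change 1.07, edgeR adjusted p = 0.0791).

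The other kinases did not pass the test. PDK1 (ENSG00000152256.14, chromosome 2, 172555373 to 172608669, plus strand) stood at 36.27, 36.42 and 37.29 CPM in −Dox replicates 1, 2 and 3, and at 31.46, 38.28 and 40.17 CPM in +Dox replicates 1, 2 and 3. The +Dox libraries lay on both sides of the −Dox libraries, with replicate 1 below and the others above. Its 95% interval ran from −0.17 to 0.17 (edgeR adjusted p = 0.999), so a change of the size seen for PDK2 lies outside it. PDK3 (ENSG00000067992.17, chromosome X, 24465244 to 24550466, plus strand), an X-linked kinase, ran from 3.44 to 4.18 CPM in −Dox and from 3.34 to 3.93 CPM in +Dox (log2 fold change −0.069, SE 0.138, edgeR adjusted p = 0.802). The direction for PDK3 turned without −Dox replicate 1 (log2 fold change 0.021) and with the transcript length offset (0.165). PDK4 (ENSG00000004799.8, chromosome 7, 95583499 to 95596516, minus strand) was the least abundant kinase. Its range was 0.334 to 0.790 CPM in −Dox and 0.480 to 0.710 CPM in +Dox, and its interval of −0.68 to 0.96 also holds changes of nearly 2-fold (edgeR adjusted p = 0.862).

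**Figure D2:**
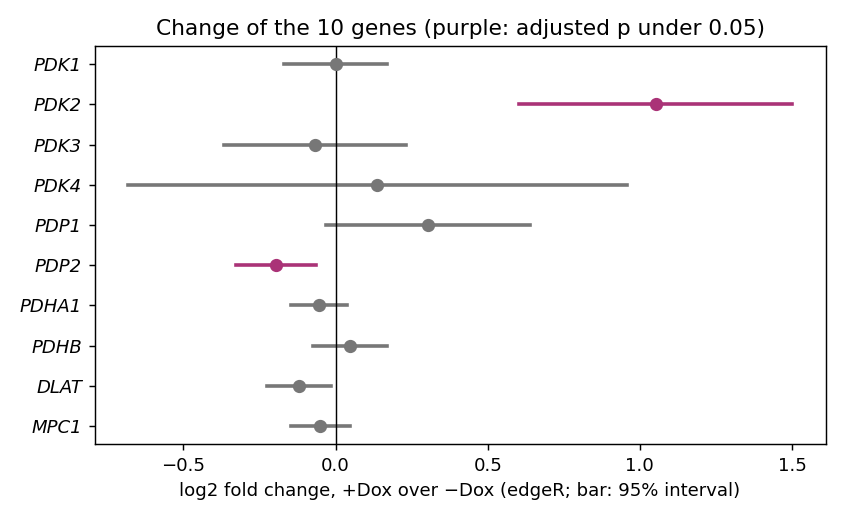
Log2 fold change of each gene, +Dox over −Dox, from edgeR, with bars for the 95% interval, which is not adjusted for the number of genes. PDK2 at 1.05 and PDP2 at −0.20 (purple) passed an adjusted p of 0.05, and the narrow intervals of PDHA1, PDHB, DLAT and MPC1 lie close to 0.

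Of the phosphatases, PDP2 fell. PDP2 (ENSG00000172840.7, chromosome 16, 66878589 to 66895754, plus strand) stood at 44.12, 40.40 and 38.22 CPM in −Dox replicates 1, 2 and 3, and at 35.39, 36.18 and 35.66 CPM in +Dox replicates 1, 2 and 3. The +Dox libraries were all below the −Dox libraries and lay within 1 CPM of each other. The log2 fold change was −0.20 (SE 0.060, edgeR adjusted p = 0.0446). This call was lost when any 1 library other than −Dox replicate 3 was left out (edgeR adjusted p between 0.0824 and 0.122), and it held without −Dox replicate 3 (0.0309). It was also lost with the transcript length offset (0.0656). PDP1 (ENSG00000164951.16, chromosome 8, 93857807 to 93926068, plus strand), the other phosphatase, had 2.90, 4.19 and 4.23 CPM in −Dox and 4.48, 5.10 and 4.37 CPM in +Dox, with +Dox above −Dox by a small margin (log2 fold change 0.30, SE 0.155, edgeR adjusted p = 0.219). The log2 fold change of PDP1 was 0.14 without −Dox replicate 1 and 0.52 with the transcript length offset.

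The subunits and the carrier did not pass the test, and their intervals leave room only for small changes. PDHA1 (ENSG00000131828.14, chromosome X, 19343893 to 19361718, plus strand) stood at 178.5, 181.7 and 178.2 CPM in −Dox and 174.1, 175.5 and 168.6 CPM in +Dox, with a 95% interval of −0.15 to 0.04 (edgeR adjusted p = 0.452). PDHB (ENSG00000168291.13, chromosome 3, 58427630 to 58433857, minus strand), its partner in E1, ran from 71.56 to 77.46 CPM in −Dox and from 72.38 to 80.63 CPM in +Dox, with an interval of −0.07 to 0.17 (edgeR adjusted p = 0.641). DLAT (ENSG00000150768.17, chromosome 11, 112025408 to 112064404, plus strand) stood at 148.2, 143.0 and 137.7 CPM in −Dox and 126.2, 131.7 and 136.7 CPM in +Dox. All +Dox libraries were below all −Dox libraries, by a margin of 1 CPM between the nearest, and the log2 fold change of −0.12 (SE 0.049) had an unadjusted p of 0.0300 and an adjusted p of 0.124 by edgeR. MPC1 (ENSG00000060762.20, chromosome 6, 166364919 to 166383013, minus strand) stood at 110.7, 113.4 and 109.7 CPM in −Dox and 107.6, 104.9 and 109.7 CPM in +Dox, so that its groups met at their edge, and its interval was −0.15 to 0.05 (edgeR adjusted p = 0.508).

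The annotated transcripts of PDK2 were examined next, since 16 are listed and reads of the gene were divided between a few of them. The main coding transcript PDK2-203 (ENST00000503176.6, 11 exons, 3364 bases) had 79, 77 and 74 counts in −Dox replicates 1, 2 and 3, and 138, 145 and 210 counts in +Dox replicates 1, 2 and 3. The −Dox libraries were nearly equal and every +Dox library was above them. A second transcript, PDK2-206 (ENST00000505897.5, 4 exons, 865 bases), is annotated as a retained intron. It had 5, 61 and 42 counts in −Dox and 86, 85 and 72 counts in +Dox, with −Dox replicate 1 far below the others. Being short, PDK2-206 took most of the TPM of the gene, 71.1% in −Dox replicate 2 and 74.2% in +Dox replicate 1, but 17.2% in −Dox replicate 1. In the other 5 libraries the TPM of the gene rested mainly on this transcript, which is not annotated as coding.

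Both transcripts run through exon 4 and part after base 50106069 of chromosome 17, where PDK2-203 is spliced to its exon 5 at 50106794 and PDK2-206 reads on into the intron for 299 bases. The 60 bases around that point are given from the GENCODE 44 transcripts (plus strand), because they are where the coding and the retained-intron transcript diverge, with the 30 bases they share in lower case and the 30 that follow in capitals. For PDK2-206 the run is chr17:50106040-50106099.
PDK2-206: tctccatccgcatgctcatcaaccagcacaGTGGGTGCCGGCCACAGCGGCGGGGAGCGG
PDK2-203: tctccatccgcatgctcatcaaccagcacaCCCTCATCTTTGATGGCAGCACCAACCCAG
The capitals of PDK2-206 are intron bases, and those of PDK2-203 are the start of exon 5.

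In a fit over 86178 transcripts PDK2-203 had a log2 fold change of 1.13 (SE 0.247) and PDK2-206 one of 1.17 (SE 0.849), with adjusted p of 0.197 and 0.760 by edgeR. Without −Dox replicate 1 the log2 fold change of PDK2-206 was 0.65 and that of PDK2-203 was 1.098. None of the 56 transcripts of the 10 genes that were tested passed an adjusted p of 0.05 by edgeR, and 4 had an unadjusted p under 0.05, where 0.204% of all transcripts were called. DESeq2 called 3 of them and 6.82% of all transcripts. These were PDK2-203 (DESeq2 adjusted p = 2.60e-04) and PDHA1-206 (7.96e-04), both higher, and DLAT-206 (0.00324), which had at most 6 counts in a +Dox library and was lower. The mix of transcripts did not pass the test for any of the 9 genes with more than 1 tested transcript (diffSpliceDGE in edgeR, smallest adjusted p = 0.330, 2 of 9 under an unadjusted 0.05), and 1.95% of all genes did. For PDK2 the unadjusted p of the mix was 0.963 in edgeR. How reads were divided between transcripts is itself uncertain, and that error is not in these fits.

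**Figure D3:**
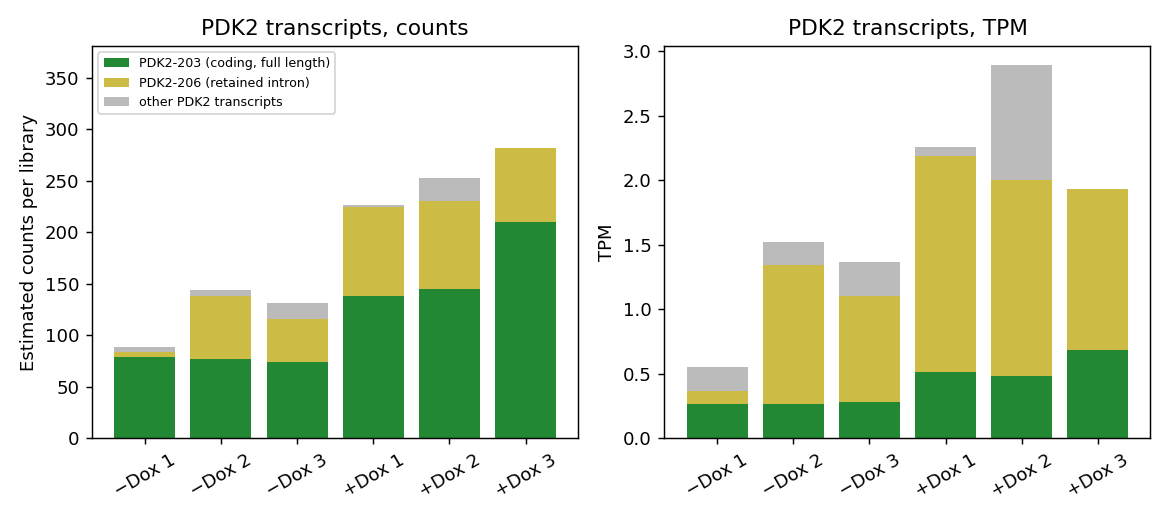
PDK2 transcripts in each library, as stacked bars of estimated counts (left) and TPM (right). In counts PDK2-203 (green) runs from 74 to 79 in −Dox and from 138 to 210 in +Dox, and in TPM the short PDK2-206 (yellow) makes up most of the bar except in −Dox replicate 1.

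The leading transcripts of the other genes were compared by their share of the gene's TPM. For PDK1 the coding transcript PDK1-203 (ENST00000410055.5) held 51.4 ± 1.41% of the gene's TPM in −Dox and 52.1 ± 7.35% in +Dox (SD, n = 3). The MANE Select transcript PDK1-201, which is 14072 bases long, held 15.9 ± 0.776% and 17.3 ± 0.972% of the TPM but the most counts, between 1344 and 1932 in a library. The MANE Select PDK3-201 held 72.2%, 67.5% and 73.1% of PDK3 in −Dox replicates 1, 2 and 3, and 80.8%, 74.5% and 82.0% in +Dox replicates 1, 2 and 3. These groups did not overlap, and the mix of PDK3 transcripts had an unadjusted p of 0.0271 and an adjusted p of 0.330 by edgeR. PDK4-201 held 100% of PDK4 in every library. For the phosphatases the MANE Select transcripts PDP2-201 (58.1 ± 4.21% in −Dox and 62.0 ± 1.65% in +Dox, SD, n = 3) and PDP1-201 (80.7 ± 6.52% and 74.3 ± 24.7%) led. PDP2-201 showed a log2 fold change of −0.15 (SE 0.064, edgeR adjusted p = 0.510).

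PDHA1 was the subunit gene with the most TPM outside its MANE Select transcript. The coding PDHA1-204 held 37.2 ± 1.27% in −Dox and 35.6 ± 1.30% in +Dox, and PDHA1-210, annotated as a retained intron, 33.1 ± 2.02% and 33.3 ± 1.92% (SD, n = 3). Its MANE Select transcript PDHA1-205 held only 5.18 ± 1.30% and 3.70 ± 0.686%. PDHB was simpler, with 92.4 ± 1.99% in −Dox and 91.7 ± 1.39% in +Dox from the MANE Select PDHB-201 (SD, n = 3). DLAT-201, also MANE Select, held 43.8 ± 0.887% and 43.6 ± 2.13% of DLAT. For the carrier, the MANE Select MPC1-201 held 98.1 ± 0.391% and 97.8 ± 0.214% (SD, n = 3), with overlap. The mix of MPC1 transcripts had an unadjusted p of 0.0286 and an adjusted p of 0.340 by edgeR.

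Exons of SAMD14 on the opposite strand cover 62.8% of the bases of PDK2-203, in its last exon, and 0% of PDK2-206. The SAMD14 counts were 6, 36 and 8 in −Dox and 18, 32 and 11 in +Dox, so they were below those of PDK2 in every library and the groups overlapped (log2 fold change 0.27, SE 0.681, edgeR adjusted p = 0.849). At so few counts the direction for SAMD14 turned with single libraries, from a log2 fold change of 1.51 without −Dox replicate 2 to −0.16 without −Dox replicate 1, and it was also below 0 without −Dox replicate 3 (−0.048) and +Dox replicate 2 (−0.14). With the transcript length offset, under which PDK2 was not called, SAMD14 had 1.18 on the log2 scale (edgeR adjusted p = 0.352). How reads over the shared bases were divided between PDK2 and SAMD14 was not tested. On the other side of PDK2, ITGA3, an integrin subunit, had a mean of 0.514 CPM without and 0.454 CPM with doxycycline (edgeR adjusted p = 0.817). Other pairs that share exon bases on opposite strands are PDHA1 with MAP3K15 (19.3% of the exon bases of PDHA1), DLAT with PIH1D2 (13.3%), PDHB with the lncRNA ENSG00000272182 (7.63%) and PDK1 with PDK1-AS1 (3%). Each of these partners had a mean of at most 1.98 CPM in a group, and none of those tested passed an adjusted p of 0.05. Next to PDP2 lie CA7 and CDH16, which had means of at most 0.110 CPM in a group.

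The 3 protein-coding genes whose log2 CPM followed PDK2 most closely over the 6 libraries, of 11612 with a mean of at least 1 CPM, were GLI4 (Pearson r = 0.9998), NRGN (0.9973) and CROT (0.9967), which encodes a peroxisomal carnitine acyltransferase. Their log2 fold changes were 0.39, 0.71 and 0.39. The points share the 6 libraries and their groups, and the values are given as a description.

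The mix of the kinases was compared as the share of each in the summed kinase TPM. PDK2 held 5.04%, 13.3% and 11.9% in −Dox replicates 1, 2 and 3, and 20.6%, 23.0% and 15.8% in +Dox replicates 1, 2 and 3. PDK1 held 80.9%, 79.0% and 78.2% in −Dox and 68.3%, 68.2% and 71.7% in +Dox. Neither pair of groups overlapped, and the mean share of PDK2 was 9.71 percentage points higher while that of PDK1 was lower (79.4% against 69.4%), both at p = 0.1 in a two-sided exact permutation test, the least that 3 against 3 libraries allow (0.2 adjusted over the 4 kinases). Counted over protein-coding transcripts only, PDK2 held 3.77 ± 1.58% in −Dox and 6.11 ± 0.808% in +Dox (SD, n = 3), and the groups overlapped (exact permutation test, p = 0.2). With the MANE Select transcript of each kinase alone the shares of PDK2 were 10.5 ± 1.25% and 18.2 ± 1.78% (SD, n = 3), without overlap. For PDK1, whose share in all transcripts differed by −9.99 percentage points, the means were 85.2% and 80.9% over protein-coding transcripts and 55.6% and 47.2% over MANE Select transcripts, both with overlapping groups. In counts the mean share of PDK1 was 86.4% in −Dox and 83.2% in +Dox, without overlap. The shares of PDK3 and PDK4 overlapped between the groups. The size of the difference for PDK1 and PDK2 thus depended on which transcripts were counted, and its direction was the same in the 9 alternatives run.

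**Figure D4:**
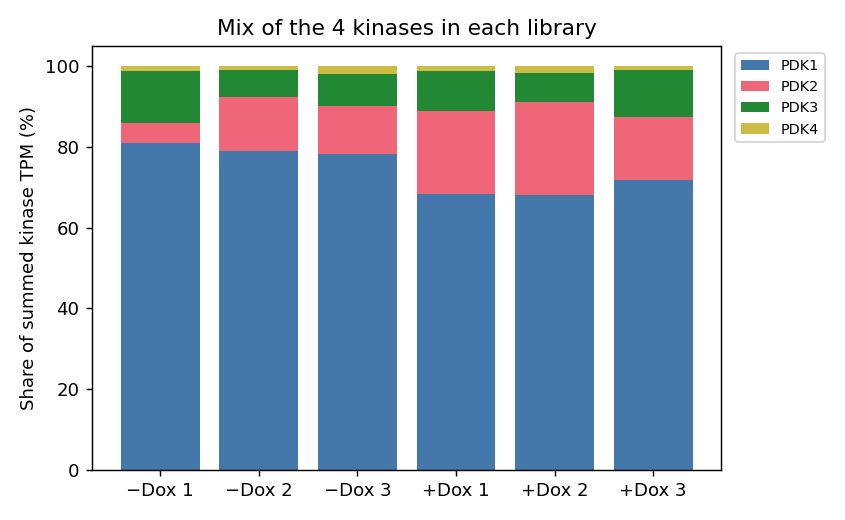
Share of each kinase in the summed TPM of the 4 kinases, in percent, as 1 stacked bar per library. PDK1 (blue) fills 78.2% to 80.9% of the −Dox bars and 68.2% to 71.7% of the +Dox bars, and PDK2 (red) 5.04% to 13.3% and 15.8% to 23.0%.

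Ratios between partners were compared on the log2 scale of TPM. The summed kinases stood to the summed phosphatases at −0.00634, 0.14 and 0.33 in −Dox replicates 1, 2 and 3, and at 0.40, 0.37 and 0.56 in +Dox replicates 1, 2 and 3. The groups did not overlap, and their means differed by 0.29 (exact permutation test, p = 0.1, or 0.4 adjusted over the 4 ratios). They overlapped with protein-coding transcripts only (difference 0.13) and with counts in place of TPM (0.19). Over MANE Select transcripts they again did not overlap, at −1.245 ± 0.13 in −Dox and −0.86 ± 0.18 in +Dox (SD, n = 3). There the phosphatases stood above the kinases, so the level of this ratio depended on the transcripts counted. The summed kinases to PDHA1 (−3.76 ± 0.0516 against −3.65 ± 0.0916), PDHA1 to PDHB (1.52 ± 0.0687 against 1.47 ± 0.104) and DLAT to PDHB (−0.0432 ± 0.128 against −0.23 ± 0.0734, SD, n = 3 throughout) overlapped between the groups. With the MANE Select transcripts alone, an unplanned alternative where PDHA1 is counted from PDHA1-205, 2 of these 3 ratios no longer overlapped. The summed kinases to PDHA1 stood at −1.58 ± 0.246 in −Dox and −0.85 ± 0.385 in +Dox, and DLAT to PDHB at −1.12 ± 0.0882 and −1.30 ± 0.0290 (SD, n = 3). Each had p = 0.1 in the exact permutation test (0.133 adjusted). In counts and over protein-coding transcripts the groups overlapped for both ratios. PDHA1 to PDHB overlapped there, but its level turned with the transcripts counted, at 0.47 ± 0.0502 in −Dox and 0.35 ± 0.0999 in +Dox over protein-coding transcripts and −2.67 ± 0.396 and −3.18 ± 0.339 over MANE Select (SD, n = 3).

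Genes around the complex were read from 5 lists, and the share called in each stands against 15.8% of all genes tested and 22.0% of those averaging 1 CPM or more. In the first, 11 of 13 other genes of the complex, its lipoyl arm and its cofactor were tested, and 1 was called higher and 1 lower (18.2%, median log2 fold change −0.055). LIPT2, the lipoyl transferase that starts lipoylation, showed 0.66 on the log2 scale (1.51 ± 0.169 against 2.40 ± 0.397 CPM, SD, n = 3, edgeR adjusted p = 0.0318). LIPT2 was called in 7 of 13 other settings and was lost when any 1 library but +Dox replicate 2 was left out. Under the transcript length offset LIPT2 had 0.37 on the log2 scale, and 0 genes of this list were called. DLD, the E3 subunit, had means of 443.1 CPM (−Dox) and 444.0 CPM (+Dox), with a 95% interval of −0.09 to 0.10 on the log2 scale. For PDHX, which binds E3, the log2 fold change was −0.10 (edgeR adjusted p = 0.207). MPC2, the partner of MPC1 in the carrier, was at 184.6 ± 14.0 CPM without and 210.0 ± 14.5 CPM with doxycycline (SD, n = 3, edgeR adjusted p = 0.0672). PDHA2, a testis form of PDHA1, and MPC1L had no counts in any library, which allows up to 3 counts per library.

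In the list of pyruvate supply and fates, 3 genes were called higher and 3 lower of 12 tested (50%, median −0.071). LDHA, which turns pyruvate into lactate, stood at 1130, 1170 and 1205 CPM in −Dox replicates 1, 2 and 3 and at 860.8, 895.3 and 1029 CPM in +Dox replicates 1, 2 and 3, with no overlap. The log2 fold change of LDHA was −0.33 (SE 0.062, edgeR adjusted p = 0.00301). SLC16A1, a lactate and pyruvate transporter, fell by 0.27 on the log2 scale (edgeR adjusted p = 0.00313), and PKM, the common pyruvate kinase gene, changed by −0.28 on the log2 scale (adjusted p = 0.0210). PKLR, the pyruvate kinase gene of red cells and liver, stood at 11.95, 13.63 and 12.19 CPM in −Dox and 22.01, 23.93 and 23.65 CPM in +Dox, a log2 fold change of 0.88 (SE 0.072, edgeR adjusted p = 6.48e-06). ME1, the cytosolic malic enzyme, rose by 0.36 and PC, which carboxylates pyruvate to oxaloacetate, by 0.33 on the log2 scale (edgeR adjusted p = 0.00147 and 0.00952). All of these but PKM were called in each of 13 other settings. PKM was lost when −Dox replicate 3 or either of +Dox replicates 1 and 2 was left out. ME3 and LDHC were at 0.0043 CPM or less in each group and were not tested.

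Of 7 sister complexes' genes, 1 was called, DHTKD1, an E1 subunit of lysine breakdown (log2 fold change 0.46, edgeR adjusted p = 4.69e-04), which is 14.3% (median 0.224). Under the transcript length offset it had 0.24 on the log2 scale and was not called. Of 15 TCA cycle genes, 1 was higher and 2 were lower (20.0%, median 0.016). IDH2, the mitochondrial NADP-linked isocitrate dehydrogenase, had 27.06, 28.50 and 30.73 CPM in −Dox and 43.59, 36.91 and 40.84 CPM in +Dox (log2 fold change 0.49, edgeR adjusted p = 5.34e-04). IDH3A and IDH3B, subunits of the NAD-linked enzyme, had log2 fold changes of −0.21 and −0.18 (edgeR adjusted p = 0.0161 and 0.0237). Without −Dox replicate 2 or +Dox replicate 3 neither of the IDH3 genes was called, and IDH3B was also not called without −Dox replicate 3 or +Dox replicate 2.

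Of 13 genes known to act on PDK transcription, 12 were tested, and 3 were called higher and 1 lower (33.3%, median −0.013). With an offset for transcript length 2 were called (16.7%). PPARA, a fatty acid sensing receptor, rose from 9.88 ± 0.651 to 15.06 ± 1.17 CPM (SD, n = 3, log2 fold change 0.61, edgeR adjusted p = 4.09e-04). FOXO3 and RXRA, the partner of PPARA, had log2 fold changes of 0.44 and 0.30 (edgeR adjusted p = 0.00257 and 0.0244). MYC fell from 150.5 ± 3.40 to 93.26 ± 4.46 CPM (SD, n = 3, log2 fold change −0.69, edgeR adjusted p = 2.15e-06). With that offset neither PPARA nor FOXO3 was called, and the log2 fold change of PPARA was 0.17 (edgeR adjusted p = 0.530) while that of FOXO3 was 0.38 (0.0516). RXRA was lost when −Dox replicate 2 or any 1 of the +Dox libraries was left out. HIF1A (51.69 and 53.26 CPM, adjusted p = 0.648), EPAS1 (6.74 and 6.62 CPM, adjusted p = 0.948) and ARNT (48.03 and 49.82 CPM, edgeR adjusted p = 0.574) did not pass the test. PPARGC1A had means of 0 CPM without and 0.00821 CPM with doxycycline and was not tested.

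**Figure D5:**
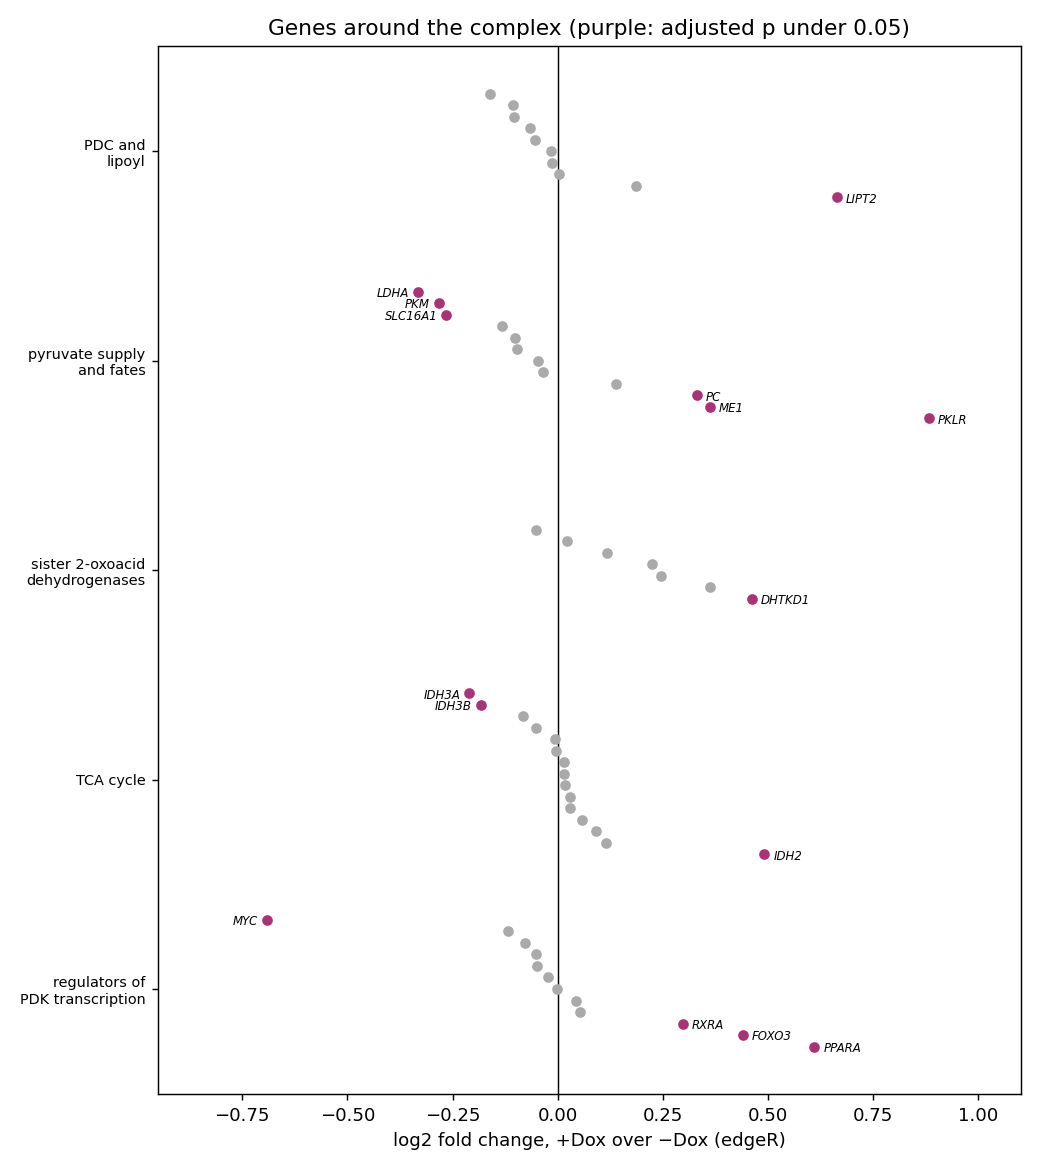
Log2 fold change, +Dox over −Dox by edgeR, of the tested genes of the 5 lists that are reported here, 1 point per gene, with genes at an adjusted p under 0.05 in purple and named. PKLR at 0.88 and MYC at −0.69 lie farthest from 0, and most points of the complex and TCA cycle lists lie near 0.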

How the data were processed

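K562 polyA libraries, 3 −Dox and 3 +Dox, were sequenced with paired ends of 150 cycles. Per the paper's methods and the submitters' processing notes, the authors quantified each library with Salmon 1.10.2. The notes name hg38 as a build, without its role. The strand, index and bias settings are not given in the sources used here. The authors deposited an estimated count per transcript, unscaled, and a TPM value, scaled for effective length and library size.

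Transcripts were matched to GENCODE 44 on GRCh38 (251142 of 252045 with version, 470 without, 433 unmatched, which held 0.125% to 0.138% of the counts). Estimated counts were summed per gene and rounded. Genes, and transcripts, with a mean count above 10 were tested by edgeR 4.0.16 (glmQLFit, glmQLFTest, TMM) in R 4.3.3, where the paper used DESeq2. The SE was derived from the fold change and its F statistic. Transcript mixes were tested by diffSpliceDGE, shares and ratios by exact permutation with scipy 1.17.1. Alternatives were DESeq2 1.42.0, RLE size factors, other count filters, a transcript length offset, a replicate block, each library left out and other transcript choices for shares and ratios. Among these the MANE Select choice was not planned. The steps were tested on simulated data.

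The members, lists and tests were chosen with earlier results of these data known. Genes named are the 10 members, PCBP1, markers, called members of each list (at most 5) and those at or near 0, overlapping or adjacent genes, and the 3 most alike to a called kinase. DLD, PDHX, MPC2, HIF1A, EPAS1, ARNT and PKM, the sixth called gene of its list, are named outside this rule, after their values were seen. A called marker and a called list gene are counted but not reported here.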

Additional observations from a re-analysis of the deposited data

How the results depend on the processing

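PDK2 and PDP2 were both called by edgeR with other count filters and with RLE size factors, and by DESeq2. With a transcript length offset 0 of the 10 genes were called, with PDK2 at a log2 fold change of 1.07 and PDP2 at −0.29 (edgeR adjusted p = 0.0791 and 0.0656), and the number of genes called fell from 3333 to 1882. With each library left out, 1 to 2 of the 10 were called, the log2 fold change of PDK2 ran from 0.83 to 1.19 and that of PDP2 from −0.24 to −0.14, and 2267 to 3313 genes were called. DESeq2 called 3 transcripts of the 10 genes and edgeR none in any setting. Over the transcripts of all genes, however, edgeR called 0 of 86178 with a replicate block and only 2 to 4 with a library left out. Those settings could hardly call a transcript of the 10 genes. In the simulated data 77.5% of the transcripts changed 16-fold were recovered.

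Deviations of same-numbered libraries correlated at −0.060 to 0.008, and those of differently numbered libraries at −0.073 to 0.076. Whether libraries of the same number shared a culture or batch is not stated in the labels, and these few values cannot decide it. With a replicate block 1 of the 10 genes, PDK2, was called (log2 fold change 1.08), PDP2 had −0.19 (edgeR adjusted p = 0.0851), and 2490 genes were called in all. Under the block IDH3B and the marker LMO2 also lost their calls (edgeR adjusted p = 0.0702 and 0.0658). Among the lists, pyruvate supply and fates kept 5 to 6 calls over the settings, the complex and lipoyl list had 0 to 3, the sister dehydrogenases 0 to 2, the TCA cycle 1 to 3 and the regulators 2 to 4. Replicates of a group differed by a chi-square of 8.16 to 17.5 per gene, where counting noise alone gives about 1. PDK2 and PDK4 had under 300 counts in each library, which limits their precision, and a 3 against 3 exact test cannot go below 0.1.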
